A study of Homo sapiens with 29 samples.

Results

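Metallothioneins and the manganese superoxide dismutase SOD2 were measured at the RNA level in IMR90 ER:RAS cells, human lung fibroblasts that carry an inducible RAS oncogene. The genes were picked by name: MT1A, MT1E, MT1F, MT1G, MT1M, MT1X, MT2A and SOD2, which are 8 of the 28266 genes in the table of counts. Earlier results of these data were known when these genes were chosen. IMR90 ER:RAS is a single engineered line in which oncogenic RAS is fused to the ligand-binding domain of the estrogen receptor, so that 4-hydroxytamoxifen (4OHT) switches RAS on and the cells become senescent. All samples are labelled as this line, although 1 library described below had little transgene RNA. Cells were transfected with an siRNA the day before treatment, and RNA was taken on day 7. There were 3 groups of 6 libraries. DMSO_siNT cells received the solvent and non-targeting siRNA, 4OHT_siNT cells received 4OHT and non-targeting siRNA, and 4OHT_siSMARCA4 cells received 4OHT and siRNA against SMARCA4, an ATPase of the SWI/SNF chromatin remodelling complex. The non-targeting siRNAs were numbered 2 and 4 and so were those against SMARCA4, which are different reagents that share only a number, and a set name of a number with V or VM, whose meaning the labels do not give, completes the name of a library. The comparison of 4OHT_siNT with DMSO_siNT is called senescence below. In it 4OHT, active RAS and the senescent state change together and cannot be told apart. The comparison of 4OHT_siSMARCA4 with 4OHT_siNT asked how these genes differ with SMARCA4 knockdown in 4OHT-treated cells. No group received siRNA against SMARCA4 without 4OHT, so whether the knockdown differences need senescence cannot be told.

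Metallothioneins are small cysteine-rich proteins that bind zinc and copper, and also toxic metals such as cadmium. Their genes lie side by side on chromosome 16 and are switched on by MTF1, a zinc-sensing transcription factor that binds metal response elements in their promoters, and by glucocorticoids and oxidative stress. SOD2 is the superoxide dismutase of the mitochondrial matrix, which turns superoxide into hydrogen peroxide, and its gene is a classic target of the inflammatory transcription factor NF-κB. Fibroblasts are known to express MT2A, MT1E and MT1X as their main metallothioneins.

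In GENCODE version 44 on GRCh38, the metallothionein genes occupy chromosome 16 from MT2A (56608584 to 56609497) through MT1E (56625475 to 56627112), MT1M (56632659 to 56633981), MT1A (56638666 to 56640087), MT1F (56657731 to 56660698) and MT1G (56666730 to 56668065) to MT1X (56682470 to 56684196). MT1G is on the minus strand and the other metallothionein genes listed are on the plus strand. SOD2 is on the minus strand of chromosome 6, from 159669069 to 159762529. All 8 are annotated as protein coding. The counts themselves carry no coordinates, and they were assigned to whole genes, so exons, introns and untranslated regions were not separated.

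The promoters of MT2A and MT1X are shown because these genes rose in senescent cells and because the promoters hold the elements through which MTF1 is known to act. They are the 250 bases before the start, from RefSeq on GRCh38.p14, plus strand, at chr16:56608334-56608583 and chr16:56682220-56682469. Capitals mark the core of the metal response element, TGCACNC or TGCGCNC on either strand.
MT2A: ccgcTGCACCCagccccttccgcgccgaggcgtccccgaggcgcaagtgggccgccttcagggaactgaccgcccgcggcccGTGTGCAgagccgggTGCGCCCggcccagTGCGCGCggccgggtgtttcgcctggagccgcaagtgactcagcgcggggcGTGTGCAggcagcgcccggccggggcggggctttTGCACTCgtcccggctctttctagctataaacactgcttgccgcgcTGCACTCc
MT1X: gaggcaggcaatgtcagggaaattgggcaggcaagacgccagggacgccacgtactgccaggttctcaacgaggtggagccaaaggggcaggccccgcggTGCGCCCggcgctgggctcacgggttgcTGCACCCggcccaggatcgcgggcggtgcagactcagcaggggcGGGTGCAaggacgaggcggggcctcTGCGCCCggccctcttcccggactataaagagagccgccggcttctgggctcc
The MT2A window held 7 cores and the MT1X window held 4, with no overlap between cores. Of 35116 promoters of this length, 24.8% held at least 1 core and 0.37% held 4 or more. SOD2 had 4 starts in the same table. The window before the start of its canonical transcript, at chr6:159693242-159693491, held no core and no match to the NF-κB binding motif (kappaB), which 9.96% of all promoters held. Of the windows before its other 3 starts, 1 held 1 core, 1 held 2 cores and 1 held 0, and 0 held a kappaB match. MT1A, MT1E, MT1F, MT1G and MT1M had no entry in the promoter table. A match of letters is a description and was not tied to binding.

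A DMSO_siNT library held 9657309 to 13448183 counts, a 4OHT_siNT library 13237672 to 15407710 and a 4OHT_siSMARCA4 library 11382143 to 18039313. CPM below means counts per 10⁶ counts of a library after TMM scaling, and SD is over libraries. The siRNA target SMARCA4 had a mean of 301 ± 20.9 CPM without and 99.03 ± 27.6 CPM with its siRNA in 4OHT-treated cells (SD, n = 6). All 4OHT_siNT libraries came from VM sets, whereas 3 of the DMSO_siNT libraries were V and 3 were VM. Of the knockdown libraries 3 were V, 2 were VM and 1 had no matching label. All 8 fibroblast markers were above 1 CPM in every library. Of the markers of other cell types, the leukocyte genes PTPRC, CD3E and LYZ, the epithelial cadherin CDH1 and the endothelial genes CDH5, PECAM1 and KDR stayed below 1 CPM in every library. The others did not: CD68 was at 45.0 to 74.9 CPM, KRT18 at 27.4 to 74.5 CPM, KRT8 at 5.41 to 17.7 CPM, KRT19 at 0.259 to 52.1 CPM, VWF at 1.04 to 4.87 CPM and EPCAM at up to 2.15 CPM. In senescence KRT19 fell by 5.04 and VWF rose by 1.23 on the log2 scale (edgeR adjusted p = 2.33e-12 and 0.00121). The summed fibroblast markers were lower in 4OHT_siSMARCA4, at 8627 to 12575 CPM, than in 4OHT_siNT, at 14920 to 19815 CPM. In DMSO_siNT the sum was at 11448 to 31306 CPM, a range that holds that of 4OHT_siNT. Of the 8 markers, 5 were called lower in senescence and 6 with knockdown, and 0 higher in either. The shares of all genes called lower were 28.9% and 5.65%. The part of these markers in the results was not tested. In bulk RNA, fewer cells that express a gene and less RNA per cell cannot be told apart.

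The DMSO_siNT library 4-2V stood apart from its group. The estrogen receptor gene ESR1, whose ligand-binding domain is part of the transgene, was at 29.5 CPM in this library and at 1034 to 1316 CPM in the other 5. The oncogene HRAS was at 436 CPM against 2165 to 2852 CPM. These levels go against its label as an ER:RAS library, and whether its cells carry the transgene was not tested. It is called below by its label. The same library had a different balance of short and long transcripts. Across 12742 genes, the slope of log2 CPM (relative to the mean of all libraries) on the log2 of transcript length was −0.22 in 4-2V and −0.11 to 0.10 in the other DMSO_siNT libraries, a negative slope meaning relatively more counts from short transcripts. It was 0.01 to 0.09 in 4OHT_siNT and −0.10 to 0.05 in 4OHT_siSMARCA4. Since metallothionein transcripts are short, at 396 to 746 bases for the canonical ones, the 3 comparisons of the tested metallothioneins and SOD2 are given with all libraries, without 4-2V, and with this length trend taken out. The gene lists, the comparisons of siRNA numbers and set names, and the nearest genes were not fitted with the trend taken out.

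Of the 8 genes, 4 passed the filter on low counts: MT2A, MT1E, MT1X and SOD2. MT1A, MT1F, MT1G and MT1M had 0 to 8 counts in every library, below 1 CPM throughout, and were not tested. MT1A was seen in every library, with 14 counts in all in DMSO_siNT, 21 in 4OHT_siNT and 25 in 4OHT_siSMARCA4. MT1G totalled 14, 13 and 19 counts in the same order, of which 8 of the DMSO_siNT counts came from 4-2V. MT1F totalled 2, 10 and 6 counts, and MT1M totalled 5, 0 and 3. A count of 0 in a library allows up to 3 counts, so no order of the groups can be read from these 4 genes at this depth.

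**Figure D1:**
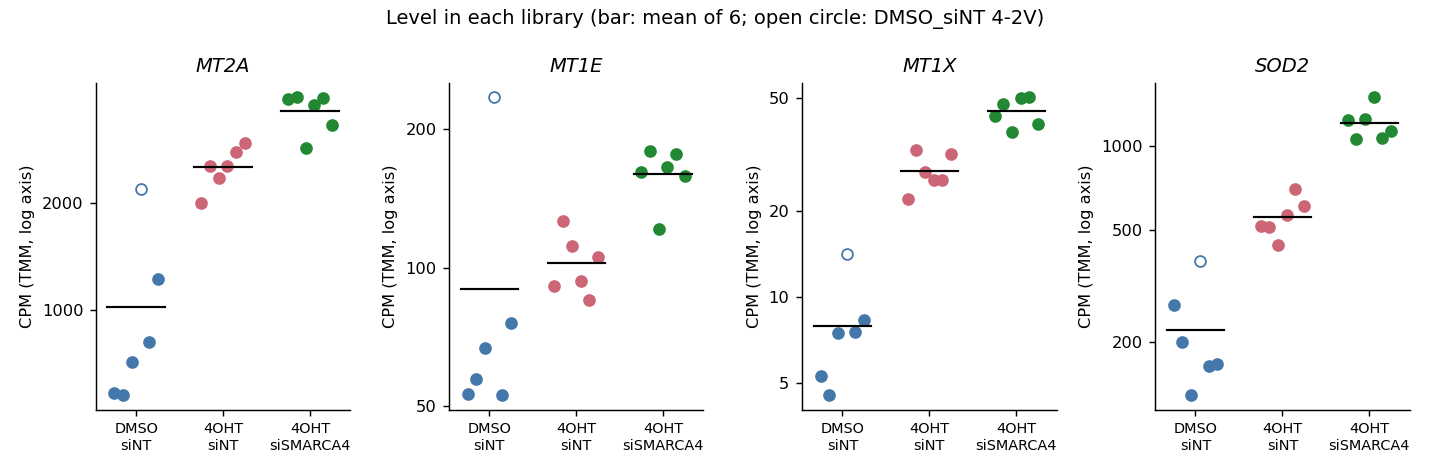
Level of each tested gene (CPM after TMM scaling, log axis) in the 6 libraries of each group, with the group mean as a bar and DMSO_siNT 4-2V as an open circle. MT1X and SOD2 separated the 3 groups without overlap, while 4-2V reached the 4OHT_siNT range for MT2A and lay above every other library for MT1E.

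MT2A carried most of the metallothionein RNA. It made up 91.3% of the counts of the 7 metallothioneins in DMSO_siNT, 95.0% in 4OHT_siNT and 94.6% in 4OHT_siSMARCA4. Per kilobase of canonical transcript, its level in 4OHT_siSMARCA4 was 9068 ± 1121 CPM per kb, against 215 ± 27.9 for MT1E and 111 ± 12.9 for MT1X (SD, n = 6). The order MT2A, MT1E, MT1X held for the mean in each group. The balance of MT1E and MT1X differed between growing and senescent cells. The ratio of MT1E to MT1X CPM was 10.7 ± 3.36 in DMSO_siNT, 3.71 ± 0.364 in 4OHT_siNT and 3.56 ± 0.275 in 4OHT_siSMARCA4 (SD, n = 6). Between the senescent groups this ratio differed by less than the spread between libraries, and its lower value in 4OHT_siNT than in DMSO_siNT exceeded that spread.

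MT2A stood at 586, 577, 714, 2196, 812 and 1223 CPM in the DMSO_siNT libraries 2-1V, 2-2V, 2-2VM, 4-2V, 4-2VM and 4-3VM. In 4OHT_siNT it stood at 1999, 2537, 2361, 2542, 2783 and 2953 CPM in 2-1VM, 2-2VM, 2-3VM, 4-1VM, 4-2VM and 4-3VM. In 4OHT_siSMARCA4 it stood at 3938, 3967, 2863, 3782, 3943 and 3325 CPM in 2-3V, 2-3VM, 4-2V, 4-2VM, 4-3V and the unlabelled library. The DMSO_siNT and 4OHT_siNT ranges overlapped only through 4-2V, and the senescent groups overlapped only through the knockdown library 4-2V. MT2A was 2.48-fold higher in 4OHT_siNT than in DMSO_siNT, a log2 fold change of 1.31 ± 0.26 (SE; edgeR adjusted p = 0.000313). In 4OHT_siSMARCA4 it was 1.44-fold higher than in 4OHT_siNT by the same fit, 0.52 ± 0.26, which did not pass the threshold of 0.05 (edgeR adjusted p = 0.215).

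MT1X was the least abundant of the 3 and had the largest fold change of them in senescence. Its values were 5.27, 4.53, 7.50, 14.2, 7.53 and 8.30 CPM in DMSO_siNT, 22.1, 32.8, 27.5, 25.7, 25.8 and 32.0 CPM in 4OHT_siNT, and 43.2, 47.8, 37.9, 50.2, 50.3 and 40.6 CPM in 4OHT_siSMARCA4, with libraries in the order given above. Every 4OHT_siNT library lay above every DMSO_siNT library, and every knockdown library lay above every 4OHT_siNT library. MT1X rose 3.54-fold in senescence (log2 fold change 1.82 ± 0.20 SE; edgeR adjusted p = 3.16e-07) and a further 1.63-fold with SMARCA4 knockdown (0.70 ± 0.19 SE; edgeR adjusted p = 0.0218). The knockdown call was lost without 4OHT_siNT 2-1VM (adjusted p = 0.0583) or without 4OHT_siSMARCA4 4-2VM (adjusted p = 0.0531). Of the 72-base stretches of the MT1X transcript, 37.5% also occur in transcripts of other genes, mostly an unnamed gene that overlaps it on the same strand, so its counts depend on how shared reads were assigned.

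With all libraries MT1E showed the widest scatter of the tested genes among growing cells relative to its mean, at 90.1 ± 71.2 CPM (SD, n = 6). Without DMSO_siNT 4-2V it was at 61.2 ± 9.90 CPM (SD, n = 5). It was at 53.2, 57.2, 66.8, 234, 53.0 and 75.8 CPM in DMSO_siNT, at 91.4, 126, 112, 93.4, 85.3 and 105 CPM in 4OHT_siNT, and at 161, 179, 121, 165, 176 and 158 CPM in 4OHT_siSMARCA4. The library 4-2V, at 234 CPM, was the highest of all 18, while the other 5 DMSO_siNT libraries lay below every 4OHT_siNT library. With all libraries MT1E gave a log2 fold change of 0.19 ± 0.29 (SE) in senescence (edgeR adjusted p = 0.608) and of 0.65 ± 0.29 with knockdown (edgeR adjusted p = 0.173), and neither was called.

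SOD2 separated the 3 groups completely. It was at 271, 200.2, 129.8, 389.5, 165 and 167 CPM in DMSO_siNT, at 519, 514, 442, 566, 698 and 608 CPM in 4OHT_siNT, and at 1230, 1058, 1246, 1484, 1067 and 1132 CPM in 4OHT_siSMARCA4. The highest library of each group lay below the lowest of the next. SOD2 rose 2.53-fold in senescence (log2 fold change 1.34 ± 0.21 SE; edgeR adjusted p = 2.39e-05) and a further 2.16-fold with knockdown (1.11 ± 0.21 SE; edgeR adjusted p = 0.00195). Against DMSO_siNT the knockdown cells had 5.46-fold more SOD2 RNA. Each siRNA against SMARCA4 gave SOD2 above each non-targeting siRNA in 4OHT-treated cells, at 1140.03 ± 86.1 CPM for number 2 and 1266 ± 209 CPM for number 4, against 492 ± 42.8 and 624 ± 67.7 CPM for the non-targeting siRNAs 2 and 4 (SD, n = 3). With the libraries numbered 4 alone the knockdown difference was 0.99 and was not called (edgeR adjusted p = 0.338), in a fit that called 4 genes in all. That fit held DMSO_siNT 4-2V as 1 of its 3 DMSO_siNT libraries. Among the libraries numbered 4, SOD2 was at 1067 to 1484 CPM with knockdown and at 566 to 698 CPM in 4OHT_siNT, without overlap.

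The 7 metallothioneins were also summed. The sum was at 639.7 to 2446 CPM in DMSO_siNT with a median of 831, at 2113 to 3091 CPM in 4OHT_siNT with a median of 2679, and at 3023 to 4195 CPM in 4OHT_siSMARCA4 with a median of 4070. It rose 2.38-fold in senescence (log2 fold change 1.25 ± 0.26 SE; edgeR adjusted p = 0.000507). With knockdown it differed by 0.53 ± 0.26 (SE) and was not called (edgeR adjusted p = 0.211). Against DMSO_siNT the knockdown cells had 3.44-fold more, 1.78 ± 0.27 (SE; edgeR adjusted p = 1.27e-05).

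By count, 3 of the 4 tested genes were called higher in 4OHT_siNT than in DMSO_siNT and 0 lower, where 23.9% of the 13136 genes tested were called higher and 28.9% lower. In 4OHT_siSMARCA4 against 4OHT_siNT, 2 of 4 were called higher, against 4.99% of all genes higher and 5.65% lower. In 4OHT_siSMARCA4 against DMSO_siNT, 4 of 4 were called higher, against 23.3% higher and 27.3% lower. No tested member was called lower by edgeR in these comparisons, and 0 were lower at an unadjusted p under 0.05 or by DESeq2. The median log2 fold change of all genes was −0.05, 0.01 and −0.04 in the 3 comparisons. These comparisons share groups with each other, so their values are given side by side and were not tested as independent. The genes were chosen with earlier results of these data known, so the counts and the shares of all genes were not tested against each other.

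Leaving out DMSO_siNT 4-2V, a library singled out after seeing the data, changed which metallothioneins were called. In 4OHT_siNT against DMSO_siNT, MT1E then rose 1.67-fold (0.74 ± 0.12 SE; edgeR adjusted p = 2.66e-05), MT2A rose 3.24-fold and MT1X 4.17-fold. In 4OHT_siSMARCA4 against 4OHT_siNT, to which 4-2V does not belong, the differences barely moved but their standard errors shrank. MT2A was then at 0.51 ± 0.16 (SE; edgeR adjusted p = 0.0209), MT1E at 0.64 ± 0.11 (adjusted p = 0.000521) and the sum at 0.52 ± 0.15 (adjusted p = 0.0162). All 4 tested genes were called higher in each of the 3 comparisons, where the background of genes called higher was 27.9%, 11.7% and 28.7%, and of genes called lower 30.3%, 12.9% and 30.5%, of 13276 genes tested. The spread within groups is estimated from all libraries of the fit, and 4-2V contributed to that estimate for every comparison.

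**Figure D2:**
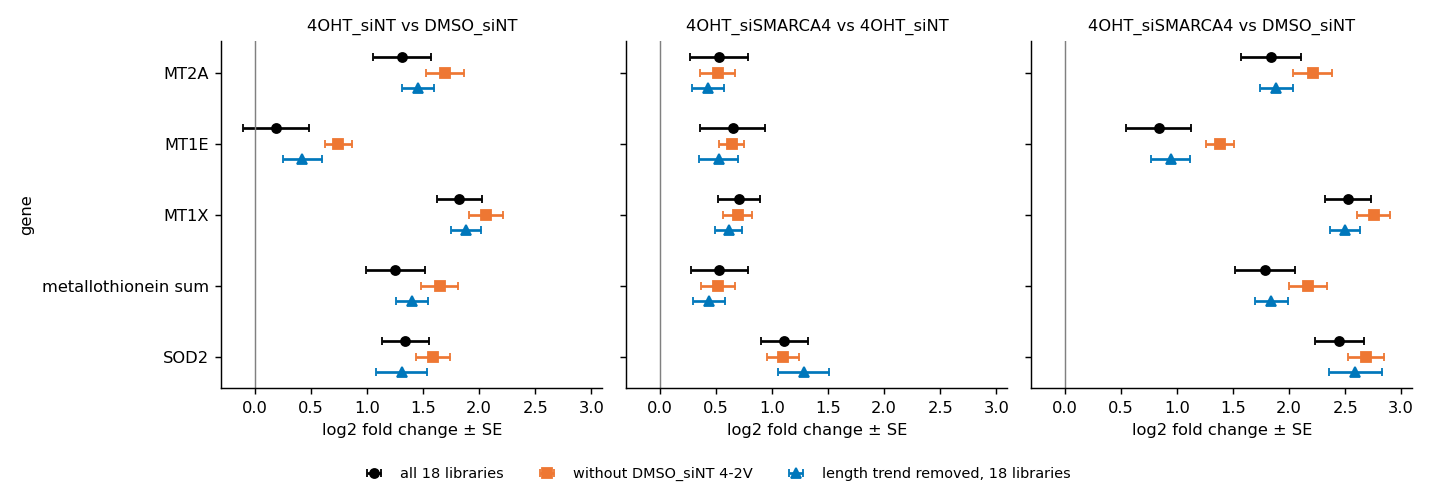
log2 fold change of each tested gene and of the metallothionein sum, with its standard error, in the 3 comparisons: all 18 libraries (black circles), without DMSO_siNT 4-2V (orange squares) and with the transcript length trend removed (blue triangles). In 4OHT_siSMARCA4 against 4OHT_siNT the values for MT2A stay between 0.43 and 0.52 and the error bars shorten.

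The metallothionein level of a library went with its length slope. Over the 18 libraries, after taking out group means, the correlation with the slope was −0.90 for MT2A, −0.82 for MT1E, −0.78 for MT1X and −0.49 for SOD2. Without 4-2V (17 libraries) it was −0.80, −0.61, −0.55 and 0.02. The libraries with relatively more counts from short transcripts were thus those with more MT2A for their group. With the trend removed by a spline on transcript length, MT1E was called in senescence (0.42 ± 0.17 SE; edgeR adjusted p = 0.0465) and MT2A stood at 1.45 ± 0.15 (adjusted p = 8.52e-08). With knockdown the sum was called (0.44 ± 0.14 SE; edgeR adjusted p = 0.0488), whereas MT2A (0.43 ± 0.14, adjusted p = 0.0554) and MT1E (0.52 ± 0.17, adjusted p = 0.0540) just missed the threshold. The counts called higher under this fit were 4, 2 and 4 of the 4 tested genes, with 25.5%, 5.82% and 24.6% of 12742 genes called higher. SOD2 remained called in all 3 comparisons, but its canonical transcript is 14167 bases long and the trend removed for it rests on that length.

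**Figure D3:**
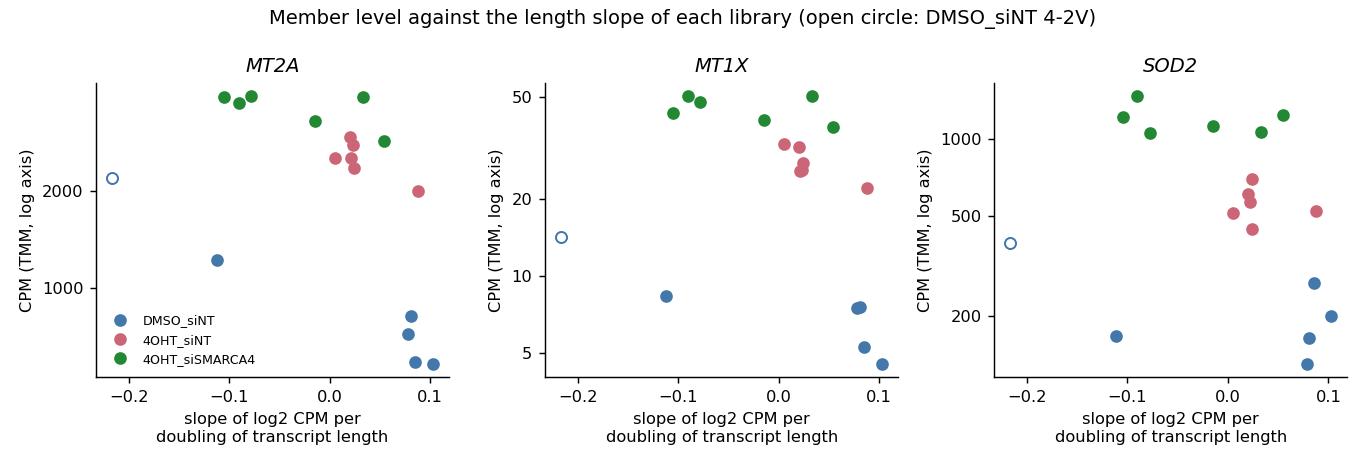
Level of MT2A, MT1X and SOD2 (CPM, log axis) in each library against the slope of log2 CPM on log2 transcript length, coloured by group, with DMSO_siNT 4-2V as an open circle. Within each group MT2A tends to be higher where the slope is lower, and the DMSO_siNT library with a slope of −0.22 has 2196 CPM.

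**Figure D4:**
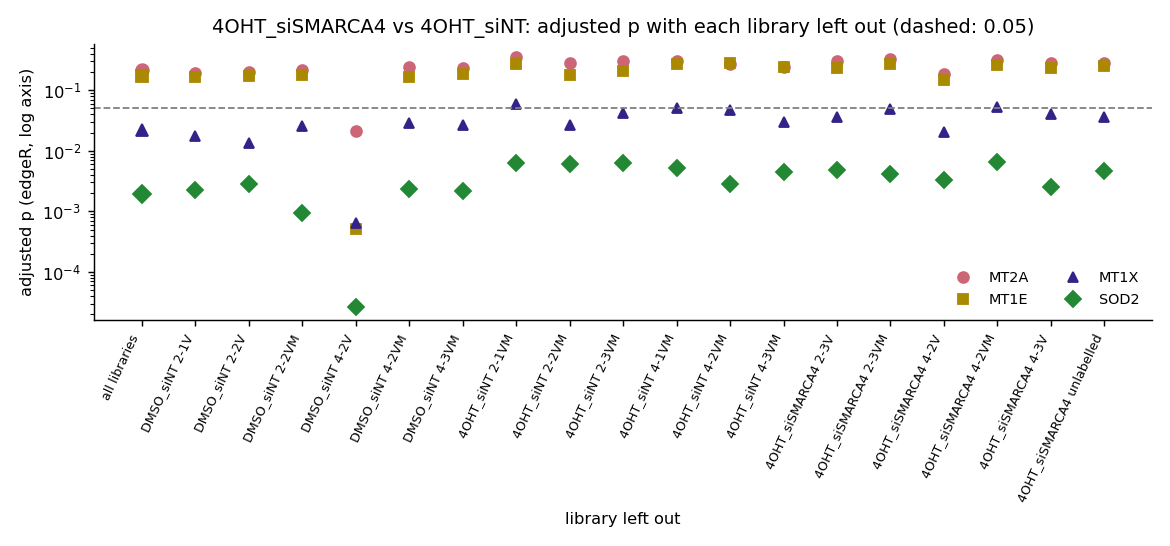
Adjusted p (edgeR, log axis) of the tested genes in 4OHT_siSMARCA4 against 4OHT_siNT with all libraries and with each library left out, and the 0.05 threshold as a dashed line. MT2A and MT1E fall below the line only when DMSO_siNT 4-2V is left out, SOD2 is below it throughout, and MT1X crosses it for 2 libraries.

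Within groups the metallothioneins varied together. After taking out group means over 18 libraries, MT2A correlated with MT1X at r = 0.91 and with MT1E at 0.87, and without 4-2V (17 libraries) at 0.80 and 0.57. SOD2 correlated with MT2A at 0.48 and, without 4-2V, at −0.19. These values share the length slope of each library, with which the metallothioneins moved, and its part in these correlations was not tested.

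The siRNA numbers and set names were compared within groups. In DMSO_siNT, MT2A was at 626 ± 76.8 CPM with siRNA 2 and at 1411 ± 711 CPM with siRNA 4 (SD, n = 3), a log2 difference of siRNA 2 minus siRNA 4 of −1.17 ± 0.26 (SE) that was not called (edgeR adjusted p = 0.0625). The library 4-2V is 1 of the 3 with siRNA 4. In each group 0 of 4 tested members were called between siRNAs by edgeR. In DMSO_siNT 3 had an unadjusted p under 0.05, in the other groups 0, and DESeq2 called 3 over the 3 groups. The share of all genes called between siRNAs was 0.0512% in DMSO_siNT, 0.0732% in 4OHT_siNT and 0.00732% in 4OHT_siSMARCA4. The 4OHT effect on MT2A was larger with siRNA 2 than with siRNA 4 by 0.91 ± 0.36 (SE), which was not called (edgeR adjusted p = 0.155). For this difference of effects 0 of 4 members were called, with 3 at an unadjusted p under 0.05 and 0% of all genes called. For the knockdown effect, which sets non-targeting and SMARCA4 siRNAs side by side by a shared number only, 0 of 4 members were called, with 0 at an unadjusted p under 0.05 and 0.0146% of all genes called.

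SOD2 was also compared by set name in growing cells. Its DMSO_siNT V libraries were at 200.2, 271 and 389.5 CPM and its VM libraries at 129.8, 165 and 167 CPM, without overlap. The log2 difference of V minus VM was 0.90 ± 0.22 (SE) and was not called (edgeR adjusted p = 0.0946). Of the 4 members 0 were called by edgeR between V and VM, 1 had an unadjusted p under 0.05, and 0.381% of all genes were called. Within VM sets alone, SOD2 rose by 1.86 in senescence (edgeR adjusted p = 1.5e-07) and by a further 1.17 with knockdown (adjusted p = 0.000153) on the log2 scale. MT2A within VM sets rose by 1.46 and 0.60 (adjusted p = 3.63e-06 and 0.0264), and MT1E by 0.65 and 0.74 (adjusted p = 0.000853 and 0.00231). DMSO_siNT 4-2V is a V library, so the fit within VM sets also left it out.

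Of 12 further metallothionein genes listed, 9 were in the table and 1, the pseudogene MT1L, passed the filter. MT1L lies within the cluster at 56617563 to 56618680 and was at 31.3 ± 35.1 CPM in DMSO_siNT, 58.5 ± 8.67 CPM in 4OHT_siNT and 123 ± 17.6 CPM in 4OHT_siSMARCA4 (SD, n = 6). Its knockdown libraries, at 97.2 to 145 CPM, lay above every 4OHT_siNT library, at 45.9 to 72.3 CPM. With all libraries the log2 fold change was 0.92 ± 0.40 (SE) in senescence (edgeR adjusted p = 0.0579) and 1.08 ± 0.39 with knockdown (adjusted p = 0.0872). Without DMSO_siNT 4-2V it rose by 1.77 (adjusted p = 1.61e-08) and 1.07 (adjusted p = 5.24e-05). All of its 72-base stretches also occur in a second gene annotated at the same place, so the level of MT1L is uncertain.

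Genes of metal handling were read next, from a list of 31 with MTF1 and the transporters of zinc and copper. Of 24 tested, 8 were called higher and 5 lower in senescence, with a median log2 fold change of 0.11, and 1 higher and 1 lower with knockdown, with a median of 0.05. Of all genes, 23.9% were called higher and 28.9% lower in senescence, and 4.99% and 5.65% with knockdown, and the counts of this list lie near these shares. Without DMSO_siNT 4-2V the counts of this list were 10 and 6, and 2 and 2. The shares of all genes were then 27.9% and 30.3%, and 11.7% and 12.9%. MTF1 rose from 19.7 ± 2.61 to 42.6 ± 4.39 CPM in senescence (1.12 ± 0.12 SE; edgeR adjusted p = 2.65e-07) and stood at 38.2 ± 6.43 CPM with knockdown (−0.16 ± 0.12 SE; adjusted p = 0.445). The zinc and manganese importer SLC39A14 rose by 1.42 ± 0.13 in senescence (adjusted p = 2.35e-08) and by 0.62 ± 0.13 with knockdown (adjusted p = 0.0036). SLC39A8, a related importer, was low throughout, at 0.533 CPM in DMSO_siNT, 2.17 CPM in 4OHT_siNT and 1.10 CPM in 4OHT_siSMARCA4, and both steps were called (adjusted p = 4.68e-06 and 0.016). The copper importer SLC31A1 rose by 1.40 ± 0.09 in senescence (adjusted p = 1.98e-10). So of the metal genes named here only SLC39A14 went up at both steps, as MT1X did.

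Enzymes that remove superoxide and peroxide, among which SOD2 would count, were listed without it. Of 24 listed and 23 tested, 2 were called higher and 9 lower in senescence, where 23.9% and 28.9% of all genes were. The median log2 fold change was −0.35. With knockdown 2 were called higher and 1 lower, where 4.99% and 5.65% of all genes were, with a median of 0.11. GPX3, the secreted glutathione peroxidase, fell by 2.80 in senescence and by 1.46 with knockdown (edgeR adjusted p = 2e-08 and 0.00351). The peroxidases GPX7 and PRDX6 fell by 1.65 and 1.40 in senescence (adjusted p = 9.86e-06 and 2.57e-08), and the thioredoxin reductase TXNRD3 fell from 8.01 to 2.83 CPM (adjusted p = 1.97e-05). SOD3, the secreted superoxide dismutase, rose by 1.94 ± 0.35 with knockdown (adjusted p = 0.00143), from 4.88 to 18.8 CPM. TXNRD1, the cytosolic thioredoxin reductase, rose by 0.76 ± 0.15 (adjusted p = 0.00301). SOD1, the cytosolic superoxide dismutase, was looked up after its values were seen: it fell by 0.92 in senescence (adjusted p = 0.00453), or by 0.49 without DMSO_siNT 4-2V (adjusted p = 0.0012), and differed by 0.22 ± 0.25 with knockdown (adjusted p = 0.631). Without DMSO_siNT 4-2V, 3 of the 23 were called higher and 10 lower in senescence, with a median of −0.08, and 6 higher and 2 lower with knockdown. The shares of all genes were then 27.9% and 30.3% in senescence, and 11.7% and 12.9% with knockdown.

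Few genes of the NADPH oxidases, which make superoxide, were expressed. Of 15 listed, 5 were tested, and 2 were called higher and 1 lower in senescence, with a median log2 fold change of 0.25. The shares of all genes called were 23.9% higher and 28.9% lower in senescence, and 4.99% and 5.65% with knockdown. RAC2, a small GTPase that activates NADPH oxidase, rose by 2.60 ± 0.27 (edgeR adjusted p = 1.29e-07), NOX4 rose by 0.87 ± 0.26 (adjusted p = 0.00858) and RAC1 fell by 0.58 (adjusted p = 0.013), or by 0.32 without DMSO_siNT 4-2V (adjusted p = 0.018). With knockdown 0 of 5 were called by edgeR, with a median of −0.18, and 2 were called by DESeq2, 1 higher and 1 lower, the same numbers as had an unadjusted p under 0.05. Without DMSO_siNT 4-2V 6 were tested, of which 3 were called higher and 2 lower in senescence and 1 higher and 1 lower with knockdown. The shares of all genes were then 27.9% and 30.3% in senescence, and 11.7% and 12.9% with knockdown.

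Most of the NF-κB target genes listed rose in senescence, as SOD2 did. All 15 were tested, and 12 were called higher and 1 lower in senescence, where 23.9% and 28.9% of all genes were. The median log2 fold change was 1.59. The gene called lower was the adhesion molecule VCAM1, at −3.33 ± 0.59 (SE; edgeR adjusted p = 0.000103). Whether NF-κB had a part in the rise of SOD2 was not tested. The chemokine CXCL8 rose by 7.89 ± 0.50 and the adhesion molecule ICAM1 by 4.76 ± 0.38 (SE; edgeR adjusted p = 1.7e-10 and 3.34e-09). The chemokine CCL20 and the survival factor BCL2A1 were nearly absent from DMSO_siNT, at 0.0675 and 0.286 CPM, and stood at 21.2 and 18.6 CPM in 4OHT_siNT (edgeR adjusted p = 8.03e-10 and 8.88e-12). With knockdown 5 were called higher and 0 lower by edgeR, with a median of 0.45 and 4.99% of all genes called higher, while 7 higher and 0 lower had an unadjusted p under 0.05 and DESeq2 called 6 higher and 0 lower. Without DMSO_siNT 4-2V edgeR called 8 higher with knockdown, where 11.7% of all genes were called higher. BIRC3, an inhibitor of apoptosis, rose by 1.86 ± 0.19 with knockdown (edgeR adjusted p = 7.3e-06), CCL20 by 1.10 ± 0.31 (adjusted p = 0.0274), BCL2A1 by 0.69 ± 0.20 (adjusted p = 0.0329) and the NF-κB subunit RELB by 0.59 ± 0.15 (adjusted p = 0.014).

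Glucocorticoid target genes, listed because metallothioneins are among such targets, split. Of 8 tested, 3 were called higher and 3 lower in senescence, with a median log2 fold change of −0.39, where 23.9% and 28.9% of all genes were. The EGFR inhibitor ERRFI1 and the transcription factor KLF9 rose by 1.80 ± 0.11 and 1.44 ± 0.18, while the kinase SGK1 fell by 0.76 and the co-chaperone FKBP5 fell from 8.88 to 3.61 CPM (edgeR adjusted p from 1.58e-10 to 9.31e-05). With knockdown 3 were called higher and 0 lower by edgeR, with a median of 0.23, against 4.99% and 5.65% of all genes. The counts were the same at an unadjusted p under 0.05 and by DESeq2. The genes called higher with knockdown were CEBPD (1.07 ± 0.29, edgeR adjusted p = 0.0237), SGK1 (0.92 ± 0.13, adjusted p = 0.000274) and KLF9 (0.72 ± 0.18, adjusted p = 0.0124).

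**Figure D5:**
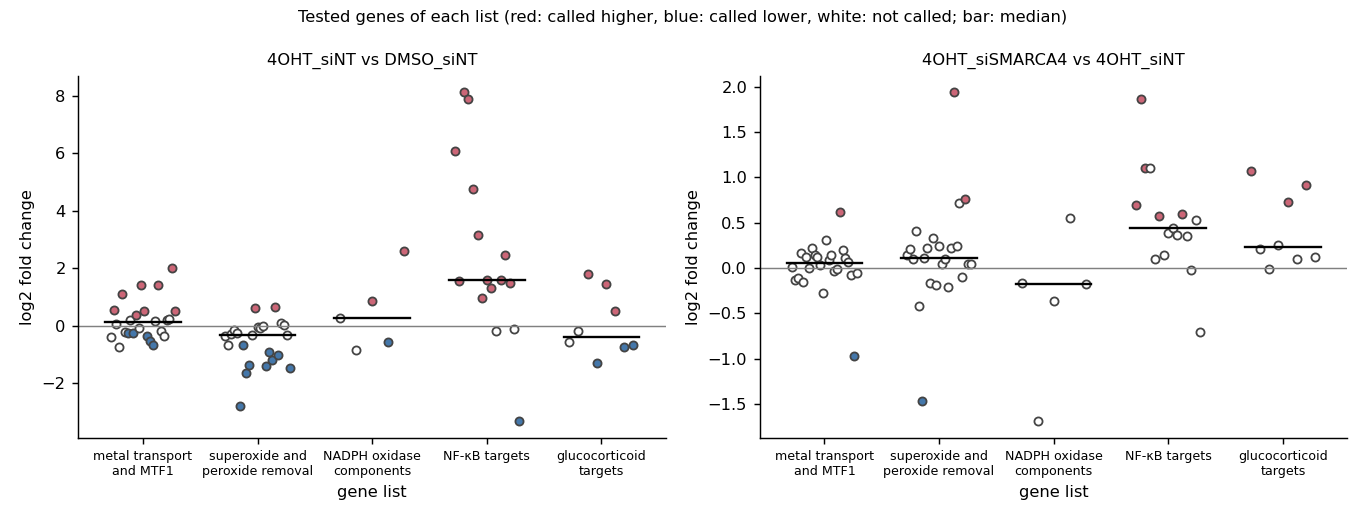
log2 fold change of each tested gene of the 5 lists in senescence (left) and with SMARCA4 knockdown (right), red where called higher, blue where called lower and white where not called, with the list median as a bar. The median of the NF-κB targets was 1.59 and 0.45, and that of the superoxide and peroxide removal genes was −0.35 and 0.11.

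Genes whose log2 CPM followed the members most closely over the 18 libraries were sought among 11510 genes. For the metallothionein sum these were PHLDA2, ATP6V0B, MRPL36, ERCC1 and MRI1, with Pearson r from 0.98 to 0.99. After taking out group means the same genes had r of 0.92 to 0.95, in libraries that share the length slope. For SOD2 they were ATP2B1, CXCL10, BIRC3, HPCAL1 and IL6, with r from 0.97 to 0.98, and from 0.77 to 0.90 after taking out group means. IL6 had a mean of 6.23 CPM in DMSO_siNT, 55.7 CPM in 4OHT_siNT and 156 CPM in 4OHT_siSMARCA4, and BIRC3 had 6.65, 19.2 and 69.7 CPM. Among the genes nearest to SOD2, BIRC3 was in the lists read above, and ATP2B1, CXCL10, HPCAL1 and IL6 were not. No gene of those lists was among the genes nearest to the metallothionein sum. What links these genes to the members was not tested.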

How the data were processed

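RNA was sequenced as polyadenylated, strand-specific, single-end libraries and aligned by the authors with STAR (version 2.7.8a and build hg38 in the submitters' processing notes, which also name DESeq2 1.36.0). The counting program, the annotation and whether strand was used are not given in the sources used here. The authors deposited raw counts per gene, not normalized, in 36 columns. The 2 lanes of each library were summed, giving 18 libraries of 9657309 to 18039313 counts. Of 29 labelled samples 17 matched a column. 1 further library, named for siRNA 2 against SMARCA4 with a set name that no title with this siRNA has, was used without a set label. The other samples were not analysed here. Nothing in the labels says that libraries came from separate cultures, so p-values measure only the spread between these libraries. Pairs of libraries within a group differed by 2.33 to 315 in chi-square per degree of freedom (45 pairs), and lanes of a library by 1.19 to 1.27, so no pair was treated as a duplicate.

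Genes were filtered with filterByExpr (minimum count 10; 13136 kept), scaled with TMM and tested by edgeR 4.0.16 (glmQLFTest; R 4.3.3). A single model held the 18 libraries, without covariates. P-values were adjusted by Benjamini-Hochberg over all genes tested and called under 0.05. Standard errors come from the F statistic. Correlations used log2 CPM (prior count 2). DESeq2 1.42.0, other filters and scaling, subsets of libraries and leaving out each library were run as alternatives. The length trend of each library was fitted with a natural spline (5 degrees of freedom) on the canonical transcript length of GENCODE version 44, known for 97.0% of the genes, centred per library and entered as an offset. For the metallothionein sum the length of MT2A was used. This fit, VM sets with the unlabelled library and the sum with MT1L were chosen after seeing the data. So was the reporting of a fit without DMSO_siNT 4-2V beside the main fit, although leaving out each library in turn was planned. The steps were tested on simulated data.

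The 8 members and the gene lists were chosen with earlier results of these data known. Genes are named by rule: the members, SMARCA4, up to 4 called genes with the largest change per list in each of the first 2 comparisons, and 5 genes most like the metallothionein sum and SOD2 by Pearson r (mean log2 CPM above 1). ESR1 and HRAS stand for the transgene, and SOD1 and VCAM1 are named outside this rule. Set names were checked for pairing: deviations of same-set libraries correlated at −0.29 to 0.30 (15 pairs), 5 of them over 0.1. Deviations of libraries from different sets correlated at −0.30 to 0.29 (81 pairs), 26 of them over 0.1. The ranges were alike, so same-set libraries were not treated as pairs.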

Additional observations from a re-analysis of the deposited data

Results flagged for a closer look

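Within each group of 6 libraries, the highest or lowest value was set against its nearest neighbour, as the gap divided by the range of the group (Dixon's ratio). The ratio was taken on log2 CPM, and the levels below are in CPM. Of 93 sets of values 10 stood out, where about 4.65 would be reached by chance at 1 in 20, and 7 of the 10 lay in the DMSO_siNT library 4-2V. In that library MT1E was far above the group at 234 CPM (ratio 0.759), and so were MT1L at 102 CPM (0.648) and GPX7 at 7.17 CPM (0.846). RAC2 was far below it at 18.2 CPM (0.878), as were FKBP5 at 4.42 CPM (0.711), SLC39A14 at 49.7 CPM (0.700) and TXNRD1 at 331 CPM (0.678). Outside 4-2V, MT1E was lowest in the 4OHT_siSMARCA4 library 4-2V at 121 CPM (0.677). NOX4 was highest in DMSO_siNT 2-2VM at 6.36 CPM (0.681) and lowest in 4OHT_siSMARCA4 4-2VM at 1.82 CPM (0.699).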

How the results depend on the processing

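MT2A, MT1X and SOD2 kept the direction and the call of the senescence comparison in all 30 alternatives run for each. The sum of the metallothioneins lost that call with siRNA 4 alone (0.93, edgeR adjusted p = 0.0616), where MT1E turned to −0.32 (adjusted p = 0.599). Leaving out each library gave 1.14 to 1.65 for the sum and 1.23 to 1.59 for SOD2, with 3 to 4 members called.

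The knockdown comparison moved more. Its 2 called members became 4 with VM sets only, with VM sets and the unlabelled library, with only the 2 groups compared, with siRNA 2 only, and with the length trend removed and 4-2V left out. DMSO_siNT 4-2V is absent from all of these fits, so they are not independent of leaving it out. The called members became 0 with siRNA 4 only, a fit that holds DMSO_siNT 4-2V. Genes called, 1397 with all libraries, became 2858, 4064, 3405, 3429, 3565 and 4 in that order. The sum was called at 0.61, 0.54, 0.53, 0.69 and 0.45 in the first 5 of these and at 0.44 with the length trend removed. SOD2 with siRNA 4 alone was at 0.99 (adjusted p = 0.338). Leaving out each library gave 1 to 4 members, 923 to 3269 genes, 0.46 to 0.58 for the sum and 1.03 to 1.17 for SOD2, which stayed called. Without DMSO_siNT 4-2V the values were 4 members and 3269 genes. Without 4OHT_siNT 2-1VM or 4OHT_siSMARCA4 4-2VM 1 member was called, and without 4OHT_siSMARCA4 2-3VM or the unlabelled library 931 and 923 genes. The cause of these changes was not tested.

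Set names were not treated as pairs in the main fit. With the set name as a replicate block, genes called were 4356 in senescence and 236 with knockdown, against 6935 and 1397. Knockdown members called were 0, with SOD2 at 0.98 (adjusted p = 0.0903) and the sum at 0.35 (adjusted p = 0.829).

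Against DMSO_siNT, the knockdown cells had 4119 genes called with siRNA 4 only against 6635, and MT1E lost its call in 6 alternatives (adjusted p up to 0.576). Leaving out each library gave 6511 to 7734 genes called in senescence, and 6347 to 7850 genes, 3 to 4 members, 1.66 to 2.17 for the sum and 2.33 to 2.69 for SOD2 with knockdown against DMSO_siNT. DESeq2 called 3 members between siRNAs. V against VM gave 0 to 1 members called as each library was left out, 1 without DMSO_siNT 2-2V. Depth limits MT1A, MT1F, MT1G and MT1M, with at most 8 counts in a library.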
